A study of Mus musculus with 14 samples.

Results

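The 10 genes described here encode the transcription factors that carry the Wnt signal into the nucleus and the proteins that feed back on it inside the cell. They were taken by name from the table of 26252 genes: the Lef/Tcf factors Lef1, Tcf7, Tcf7l1 and Tcf7l2, the scaffolds Axin1 and Axin2, the zinc finger factors Sp5 and Sp8, and the Dishevelled-binding proteins Nkd1 and Nkd2. The mice were wild type, of the strain C57BL/6JOlaHsd, and RNA came from the epithelium of embryonic back skin (E14.5), when hair placodes have formed. Cells positive for the adhesion molecule MAdCAM-1 are called placode-enriched and negative cells are called IFE (interfollicular epithelium), with 7 libraries of each, formed as 7 pairs. Each library pooled 3 to 4 embryos of a litter, and no treatment or mutant allele is labelled in either fraction.

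As background, Wnt signalling acts by sparing beta-catenin from a destruction complex built on the Axin scaffold. Spared beta-catenin enters the nucleus and binds Lef/Tcf proteins, which otherwise sit on target genes with Tle corepressors. Several targets feed back on the pathway, Axin2, Sp5 and Nkd1 among them in the mouse embryo. In mouse skin the pathway is needed for placodes to form, and Lef1 is needed for normal hair follicles.

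Of the 10 genes, 4 differed between the fractions. Tcf7 and Sp5 were higher in the placode-enriched cells, Lef1 was moderately higher, and Nkd2 was lower. Tcf7l1, Tcf7l2, Axin1, Axin2 and Nkd1 did not pass the test, and Sp8 was all but unread. Of 15382 genes tested, 31.1% differed by the same test, edgeR's quasi-likelihood F test with the pair as a block at a Benjamini-Hochberg adjusted p under 0.05. Among all genes tested 15.5% rose and 15.6% fell, so counts over these few genes are a description. The filter on low counts kept 9 of the 10, and Sp5 could pass it through the placode-enriched libraries, where it is high.

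The stretches of DNA before the starts of Sp5, Nkd2 and Axin2 are shown because Sp5 had the largest rise of the 10, Nkd2 the only fall that passed, and Axin2 is a feedback gene that did not pass. Each is the 250 bases before the RefSeq start (build GRCm38.p6), 5′ to 3′ on the gene's own strand, with matches to a Lef/Tcf motif in capitals. The motif was CTTTG followed by AA, AT, TA or TT, searched on both strands, and the matches printed do not overlap.
Sp5 (chr2:70474673-70474922, plus strand): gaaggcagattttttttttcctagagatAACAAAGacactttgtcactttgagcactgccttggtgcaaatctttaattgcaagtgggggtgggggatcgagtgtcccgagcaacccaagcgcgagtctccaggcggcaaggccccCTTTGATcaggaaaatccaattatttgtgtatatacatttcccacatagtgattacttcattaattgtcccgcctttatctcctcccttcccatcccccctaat
Nkd2 (chr13:73847632-73847881, minus strand): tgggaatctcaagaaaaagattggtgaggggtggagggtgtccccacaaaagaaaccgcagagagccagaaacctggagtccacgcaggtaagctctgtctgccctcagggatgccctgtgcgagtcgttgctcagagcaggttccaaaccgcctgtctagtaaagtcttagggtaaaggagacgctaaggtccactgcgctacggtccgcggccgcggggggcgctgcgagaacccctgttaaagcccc
Axin2 (chr11:108920099-108920348, plus strand): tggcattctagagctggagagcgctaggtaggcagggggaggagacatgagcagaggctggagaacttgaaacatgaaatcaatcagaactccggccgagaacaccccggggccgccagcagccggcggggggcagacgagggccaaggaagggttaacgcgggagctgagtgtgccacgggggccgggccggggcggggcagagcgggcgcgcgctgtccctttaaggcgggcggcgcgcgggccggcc

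The Sp5 window held 2 matches, starting 222 and 104 bases before the start, whereas the Nkd2 and Axin2 windows held 0. Of 32851 windows of this length in the RefSeq table, 14.8% held 1 or more matches and 1.43% held 2 or more. Windows were found for 9 of the 10 genes, 16 windows in all, and 4 of the 16 held a match, at Sp5 and at alternative starts of Lef1, Sp8 and Tcf7l2. The windows of Tcf7, Tcf7l1, Nkd1, Nkd2 and Axin2 held 0. A match describes the letters of the window and shows no binding. A count of 0 holds only for these short windows, as the DNA outside them was not searched. Such a count does not show that Axin2, Nkd2 or another gene lacks matches elsewhere.

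Library totals were 23.8 to 49.5 M (megacounts), with 32.8 ± 8.44 M in placode-enriched and 33.7 ± 4.91 M in IFE libraries (SD, n = 7 each). The sort was checked on Madcam1, which encodes the sorted protein, at 47.9 ± 12.1 CPM (counts per megacount of the library total after TMM scaling) in placode-enriched libraries, against 0.561 ± 0.367 CPM in IFE libraries. A list of 10 placode markers, Madcam1 among them, summed to 1589 to 2005 CPM in the placode-enriched libraries, against 331 to 371 CPM in IFE. Most of the IFE sum came from Sostdc1, at 231 CPM of a mean of 352 CPM. The other markers averaged 0.561 (Madcam1) to 32.3 CPM (Foxi3) in IFE, so transcripts of the list were not absent from that fraction. Suprabasal markers (10 genes) summed to 222 to 483 CPM in placode-enriched libraries, against 2902 to 4544 CPM in IFE libraries. Fewer cells of a type and less RNA per cell cannot be told apart in these bulk samples.

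**Figure D1:**
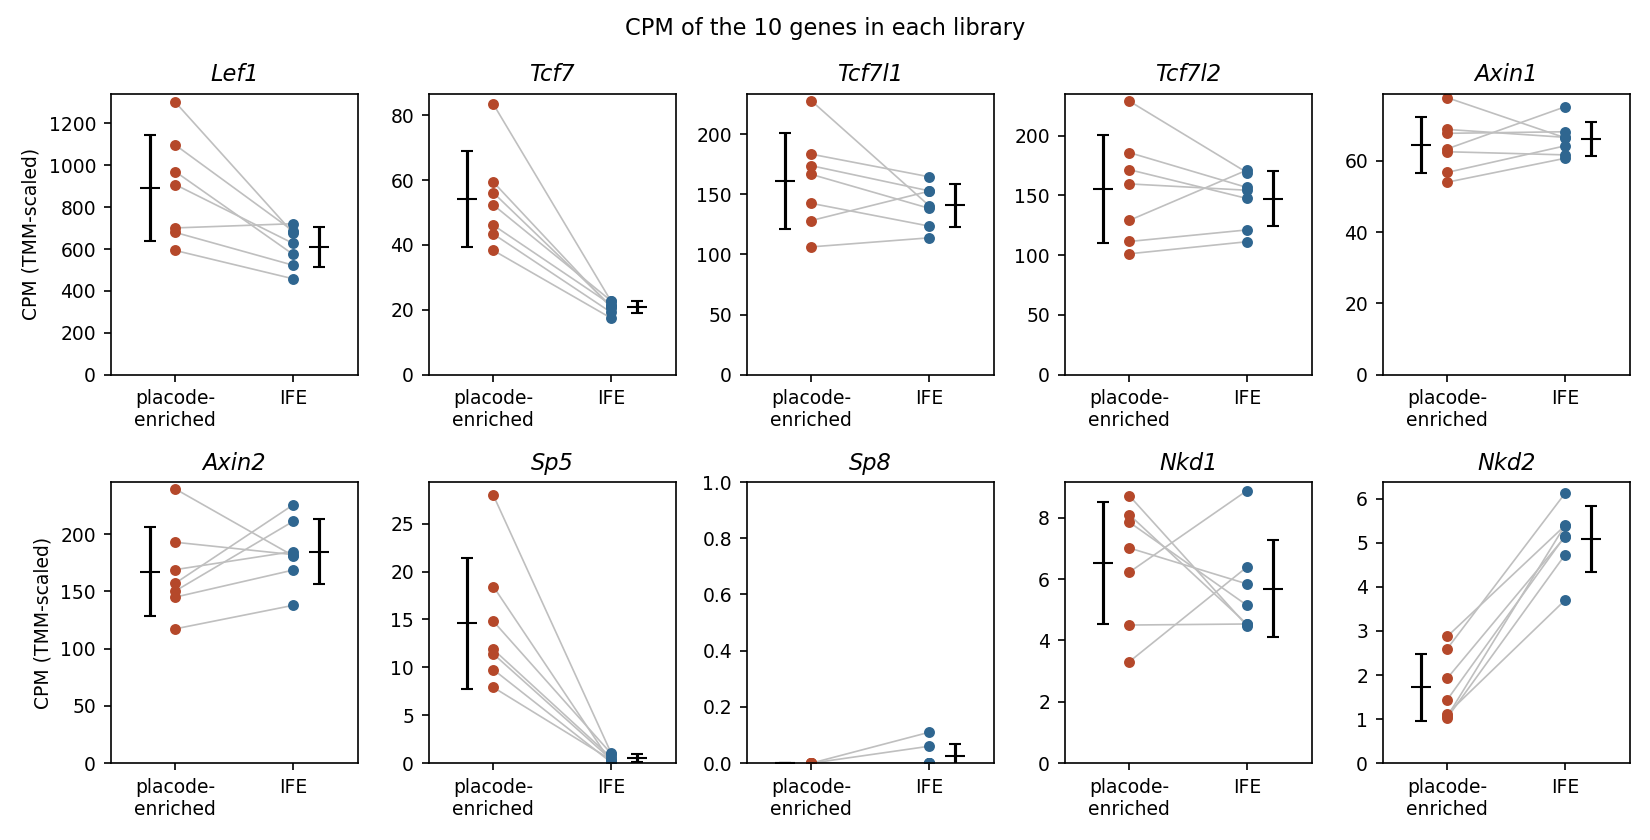
CPM with TMM scaling (y axis, from 0) of each of the 10 genes in the 7 placode-enriched (red) and 7 IFE (blue) libraries; grey lines join the libraries of a pair and black bars give the mean ± SD. The ranges of Tcf7, Sp5 and Nkd2 do not overlap between the fractions, and Sp8 lies at or near 0 throughout.

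Lef1 (ENSMUSG00000027985; GRCm38 chromosome 3, 131110471 to 131224356, plus strand) encodes a partner of beta-catenin that mostly activates. Its level in the placode-enriched libraries was 593 CPM at the lowest, 908 at the median and 1301 at the highest, against 458, 627 and 721 CPM in the IFE libraries. The ranges overlapped, and 6 of 7 pairs were higher in the placode-enriched library. The exception was pair 3, at 701 CPM in its placode-enriched library, against 721 CPM in its IFE library. The log2 fold change was 0.52 ± 0.10 (approximate SE; 95% interval 0.30 to 0.74; edgeR adjusted p = 0.00156), a fold of 1.43. Taking only the 3 pairs with a title code of 27-7, the Lef1 value was 0.72 (edgeR adjusted p = 0.00556), and in the 4 other pairs it was 0.37 and missed the threshold (edgeR adjusted p = 0.0641). The difference between these sets of pairs, 0.35 ± 0.18, did not pass (edgeR adjusted p = 0.902). Of the exon bases of Lef1, 1208 of 8788 are shared with a gene model on the opposite strand, and the strand setting of the counting is not given in the sources used here.

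Tcf7 (ENSMUSG00000000782; chromosome 11, 52252371 to 52283014, minus strand) encodes the factor called TCF1 at the protein level, which is known from mouse lymphocytes and embryos to act with Lef1. It stood at 38.3 CPM at the lowest, 52.3 at the median and 83.4 at the highest in placode-enriched libraries, against 17.4, 21.2 and 22.8 CPM in IFE libraries. The ranges did not overlap, as they did not for 14.8% of all genes tested. All 7 pairs were higher, where 26.5% of all genes tested had the same sign in 7 of 7 pairs. The log2 fold change was 1.35 ± 0.10 (95% interval 1.12 to 1.57; edgeR adjusted p = 3.37e-07). The coefficient of variation was 27.4% among the placode-enriched libraries, against 9.18% among the IFE libraries.

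Tcf7l1 (ENSMUSG00000055799; chromosome 6, 72626378 to 72789254, minus strand) encodes the member best known as a repressor, and in mouse skin it is known from undifferentiated cells. It ran from 106 to 228 CPM in the placode-enriched libraries, with a median of 167, and from 114 to 165 CPM in IFE, with a median of 141. The ranges overlapped, and the log2 fold change was 0.17 (95% interval -0.04 to 0.38; edgeR adjusted p = 0.231). Tcf7l2 (ENSMUSG00000024985; chromosome 19, 55741820 to 55933654, plus strand), a factor that can activate or repress, ran from 101 to 229 CPM with a median of 160 in the placode-enriched libraries. In IFE libraries it ran from 111 to 171 CPM with a median of 154. Its log2 fold change was 0.04 (95% interval -0.16 to 0.24; edgeR adjusted p = 0.791). These symbols should not be mixed up with Tcf3 and Tcf4, which belong to another family and were not among the 10 genes.

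**Figure D2:**
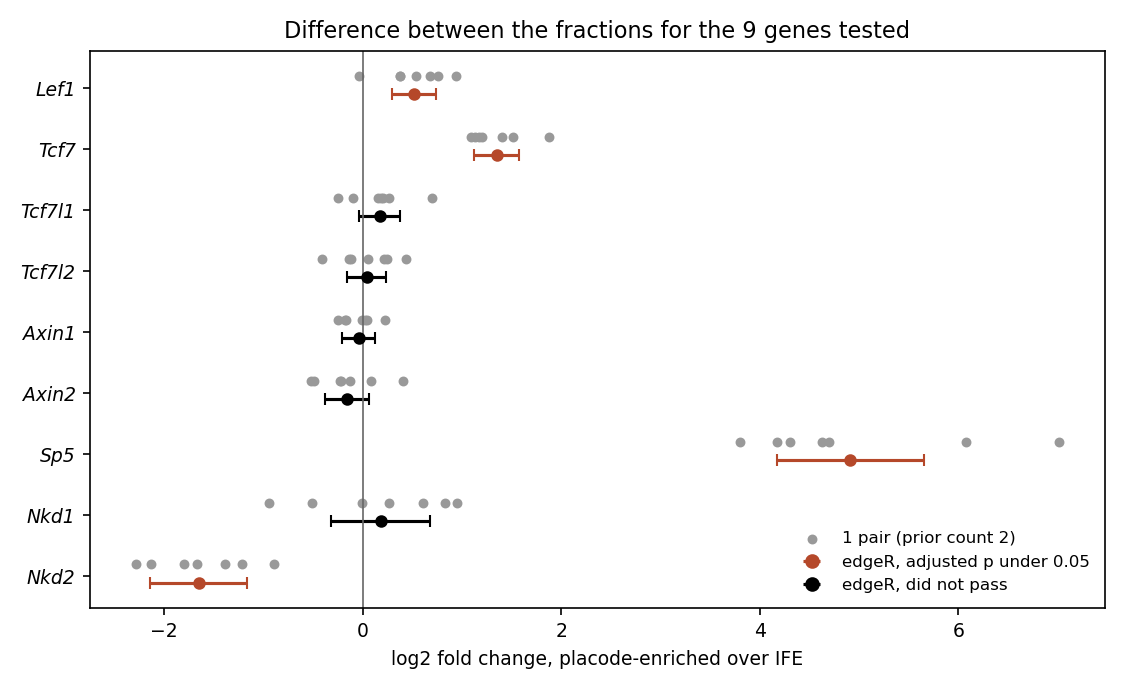
Log2 fold change of placode-enriched over IFE (x axis) for the 9 genes tested, with the edgeR estimate and its 95% interval (red where the adjusted p is under 0.05, black otherwise) and the difference in each pair (grey points). Lef1, Tcf7 and Sp5 lie above 0 and Nkd2 below, while the intervals of the other 5 include 0.

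Levels of different genes were compared per kilobase (kb) of exon. Among the 4 factors Lef1 was the most abundant in either fraction, at 102 ± 28.9 CPM per kb in placode-enriched libraries, against 69.4 ± 10.9 CPM per kb in IFE libraries (SD, n = 7 each). Tcf7l1 followed at 41.1 ± 10.2 and 35.9 ± 4.52 CPM per kb. Below them, Tcf7 at 20.6 ± 5.66 CPM per kb and Tcf7l2 at 17.7 ± 5.13 overlapped in the placode-enriched libraries. In the IFE libraries the order was turned, with Tcf7 at 7.92 ± 0.727 CPM per kb under Tcf7l2 at 16.8 ± 2.62, without overlap.

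The make-up of the family was described as each factor's share of the sum. Tcf7 made up 11.6 ± 1.98% of the summed Lef/Tcf level per kb in placode-enriched and 6.15 ± 0.641% in IFE libraries, without overlap. Tcf7l2 made up 9.02 to 10.3% in the placode-enriched and 12.2 to 13.8% in IFE libraries, lower in all 7 pairs and also without overlap. The share of Tcf7l1 was 22.8 ± 1.54% in placode-enriched and 27.7 ± 1.30% in IFE libraries, lower in all 7 pairs. Lef1 held 55.9 ± 1.42% in placode-enriched and 53.3 ± 1.42% in IFE libraries. Shares of a whole are tied to one another, so higher shares of Tcf7 and Lef1 by themselves lower the others, and no test was made of them. The family's summed level was 181 ± 47.8 CPM per kb in placode-enriched libraries (122.6 to 253.6), against 101.1 to 148.7 in IFE libraries, higher in 6 of 7 pairs.

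**Figure D3:**
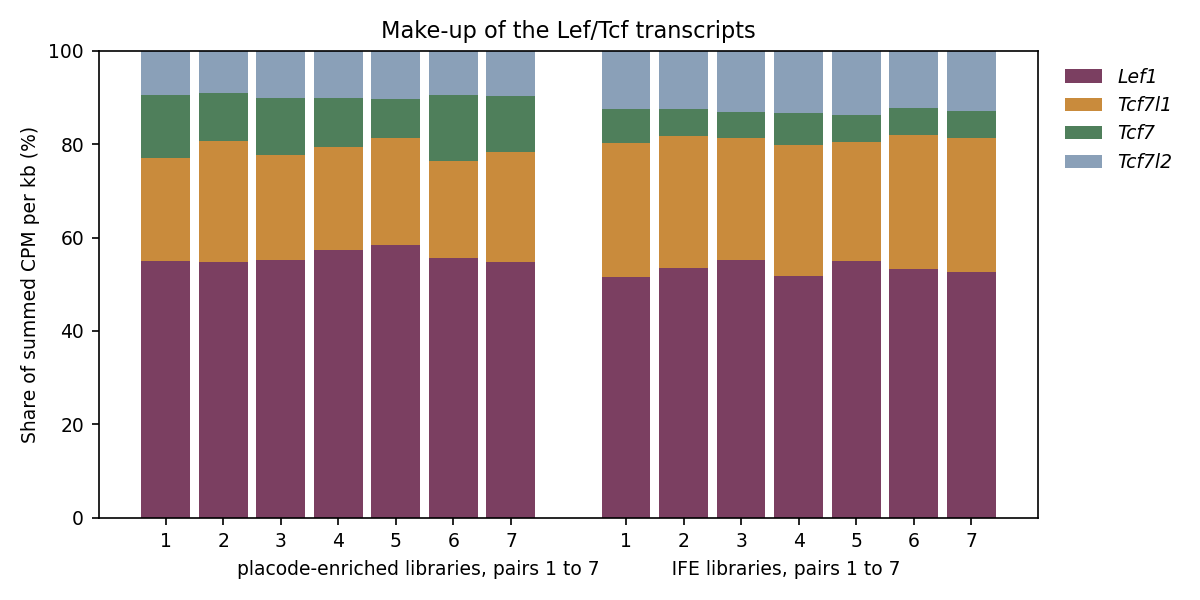
Share of each factor in the summed Lef/Tcf level (CPM per kb of exon, y axis in percent) in the 7 placode-enriched libraries (left) and the 7 IFE libraries (right), by pair. Tcf7 takes 8.43 to 14.2% of the placode-enriched bars and 5.53 to 7.24% of the IFE bars.

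Axin2 (ENSMUSG00000000142; chromosome 11, 108920349 to 108950783, plus strand) is the scaffold whose gene is induced by Wnt signalling in many tissues, and it is widely read as a measure of the pathway. It stood at 117 CPM at the lowest, 157 at the median and 239 at the highest in placode-enriched libraries, against 138, 182 and 226 CPM in IFE libraries. The fractions overlapped, and 5 of 7 pairs were lower in the placode-enriched library. Its log2 fold change of -0.16 ± 0.10 did not pass (95% interval -0.38 to 0.06; edgeR adjusted p = 0.282). Pair 5 carried the largest difference the other way, at 0.40, and without it the value was -0.25 with an edgeR adjusted p of 0.0391, past the threshold. Of its 5506 exon bases, 209 are shared with a gene model on the opposite strand.

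Axin1 (ENSMUSG00000024182; chromosome 17, 26138688 to 26195811, plus strand), the scaffold made in most cells without induction, varied least of the 9 genes tested, with a coefficient of variation of 12.3% in placode-enriched and 7.28% in IFE libraries. It ran from 54.0 to 77.7 CPM in placode-enriched libraries, against 60.7 to 75.2 CPM in IFE libraries, with medians of 63.4 and 66.5. Its log2 fold change was -0.04 (95% interval -0.21 to 0.12; edgeR adjusted p = 0.717). Per kb, Axin2 exceeded Axin1 in both fractions, at 30.4 ± 7.13 over 16.8 ± 2.07 CPM per kb in placode-enriched and 33.5 ± 5.16 over 17.3 ± 1.26 in IFE libraries. Axin2 held 64.0 ± 2.56% of the summed Axin level in placode-enriched and 65.7 ± 2.81% in IFE libraries, with overlapping ranges.

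Set against Lef1 within the same library, both scaffolds were lower in the placode-enriched cells; this ratio was chosen after the values were seen and has no test. Axin2 stood at 0.264 to 0.358 of the Lef1 level per kb in placode-enriched libraries, against 0.423 to 0.537 in IFE libraries. It was lower in all 7 pairs and the ranges did not overlap. Tcf7 over Lef1 ran the other way, at 0.207 ± 0.0386 in placode-enriched and 0.116 ± 0.0149 in IFE libraries. Tcf7l2 over Lef1 was narrow within each fraction, at 0.174 ± 0.00651 in placode-enriched and 0.242 ± 0.0101 in IFE libraries. All these ratios share Lef1 as the denominator. Lef1 rose and neither Axin passed the test, so the lower ratios do not show a fall of the Axins.

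**Figure D4:**
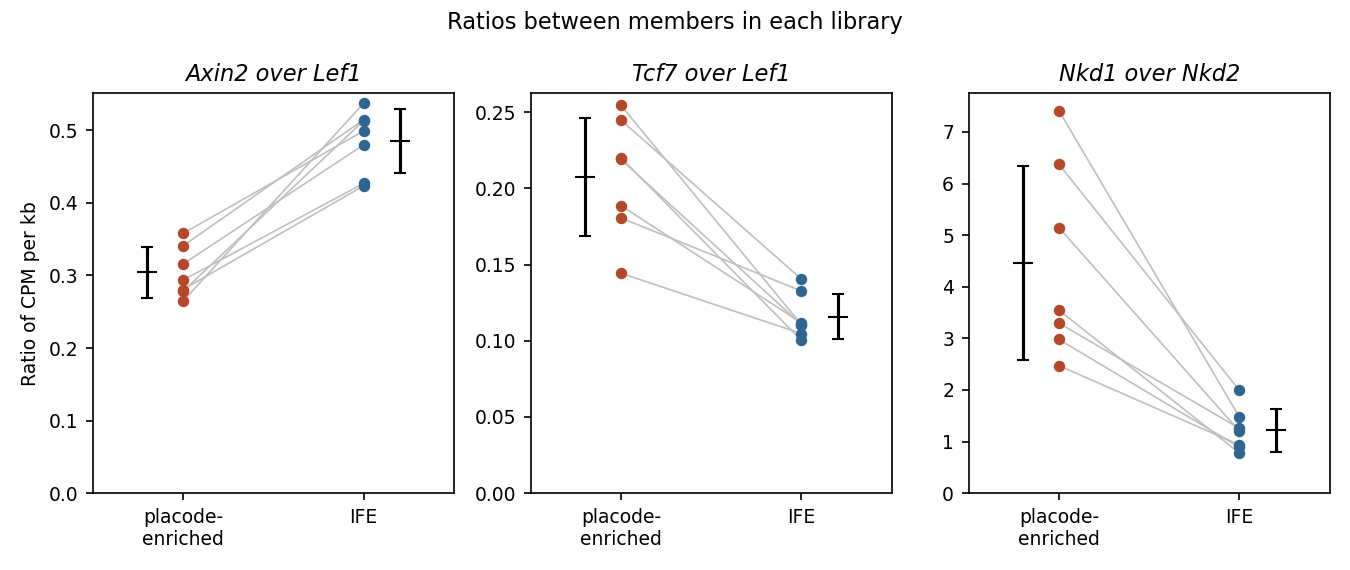
Ratios of the levels per kb of exon (y axes, from 0) of Axin2 over Lef1, Tcf7 over Lef1 and Nkd1 over Nkd2 in the placode-enriched (red) and IFE (blue) libraries, joined by pair, with the mean ± SD in black. In each panel the 7 placode-enriched values lie outside the range of the 7 IFE values.

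Sp5 (ENSMUSG00000075304; chromosome 2, 70474923 to 70477729, plus strand), a zinc finger factor and a Wnt target in the mouse embryo, differed most of the 9 genes tested. It stood at 7.91 CPM at the lowest, 11.9 at the median and 28.0 at the highest in placode-enriched libraries, against 0.0834, 0.381 and 1.07 CPM in IFE libraries. Every placode-enriched library was above every IFE library, with a log2 fold change of 4.91 ± 0.34 (95% interval 4.17 to 5.65; edgeR adjusted p = 1.51e-07), a fold of 30.1. Ranges did not overlap for 14.8% of all genes tested. The IFE values rest on 121 counts over 7 libraries, against 3443 in the placode-enriched libraries, which limits the precision of the fold. Between pairs, the median log2 difference was 4.63 and the highest 7.01. Sp5 is the gene whose window before the start held the 2 capitalised matches printed above. Any part of these matches in its level was not tested.

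Sp8 (ENSMUSG00000048562; chromosome 12, 118846329 to 118852576, plus strand), a relative of Sp5 known from mouse limb and brain, gave 0 counts in the 7 placode-enriched libraries. At 229.8 M counts in all, this allows up to 0.0131 CPM, from a limit of 3 counts over the group and for counting error only. In the IFE libraries it gave 6 counts, in 2 of 7 libraries. It was not tested, and no fold is given.

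Of the other Sp factors, 5 of 7 were tested, of which 1 rose and 1 fell, near the 15.5% and 15.6% of all genes tested. Sp4 rose, at 36.5 ± 4.63 CPM in placode-enriched libraries, against 23.8 ± 2.74 CPM in IFE libraries (log2 fold change 0.62 ± 0.09; edgeR adjusted p = 0.000151). Sp6, known from mouse skin and tooth, fell, at 19.8 ± 4.23 CPM in placode-enriched libraries, against 33.3 ± 5.68 CPM in IFE libraries (-0.76 ± 0.13; edgeR adjusted p = 0.000404). The Sp6 value is uncertain, since 3329 of its 3841 exon bases are shared with a gene model on the opposite strand. Sp1 (log2 fold change 0.06), Sp3 (0.16) and Sp2 (0.10), general factors of GC-rich promoters, did not pass. The median of the 5 was 0.10, against -0.02 over all genes tested.

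Nkd2 (ENSMUSG00000021567; chromosome 13, 73818534 to 73847631, minus strand) encodes a protein that binds Dishevelled and can dampen the Wnt signal. It stood at 1.03 CPM at the lowest, 1.44 at the median and 2.88 at the highest in placode-enriched libraries, against 3.70, 5.16 and 6.12 CPM in IFE libraries. The ranges did not overlap and all 7 pairs were lower. Over all genes tested, 14.8% had ranges without overlap and 26.5% had the same sign in 7 of 7 pairs. On the log2 scale the fold change was -1.65 ± 0.22 (95% interval -2.14 to -1.16; edgeR adjusted p = 7.87e-05). The counts behind it were 387 in the placode-enriched and 1193 in the IFE libraries. Melanoblast markers moved the same way: 8 of 9 listed were tested and all 8 were lower, with a sum of 8.31 to 14.6 CPM in placode-enriched libraries, against 124 to 222 CPM in IFE libraries. Of the defining markers, Tyrp1 averaged under 0.1 CPM over the 14 libraries, while Dct averaged 0.315 CPM in placode-enriched libraries, against 19.8 CPM in IFE libraries. Markers of Schwann cells and neurons summed to 81.8 to 111 CPM in placode-enriched libraries, against 144 to 158 CPM in IFE libraries, mostly from Erbb3, with Stmn2 under 0.1 CPM. The part of these cells, and of the suprabasal cells given above, in the Nkd2 value was not tested.

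Nkd1 (ENSMUSG00000031661; chromosome 8, 88521354 to 88594884, plus strand), its relative and a Wnt target in several mouse tissues, did not pass. It ran from 3.31 to 8.72 CPM in placode-enriched libraries with a median of 7.01, and from 4.48 to 8.89 CPM in IFE libraries with a median of 5.14. The log2 fold change was 0.18 (95% interval -0.32 to 0.68; edgeR adjusted p = 0.613), the widest interval of those that did not pass. Per kb, Nkd1 was 2.47 to 7.41 times the Nkd2 level in placode-enriched libraries and 0.774 to 1.99 times in IFE libraries, without overlap. This ratio has no test, and the ranges of its denominator Nkd2 do not overlap by themselves, so it shows no rise of Nkd1. Both stood far below the Lef/Tcf factors and the Axins, at 1.43 and 0.357 CPM per kb in placode-enriched and 1.25 and 1.06 CPM per kb in IFE libraries for Nkd1 and then Nkd2.

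Several of these genes shared the library in which they were highest or lowest. In the placode-enriched fraction the library of pair 5 was the highest for 7 of the 9 tested members: Lef1, Tcf7l1, Tcf7l2, Axin1, Axin2, Sp5 and Nkd1. Over all genes tested that library was the highest for 26.9%. In the IFE fraction the library of pair 3 was the highest for 5 of the 9, namely Lef1, Tcf7l2, Axin1, Axin2 and Nkd1, against 21.6% of all genes tested. The library of pair 1 was the lowest for 5 of the 9, namely Lef1, Tcf7l1, Tcf7l2, Axin1 and Axin2, in the placode-enriched and again in the IFE fraction, against 20.04% and 23.7% of all genes tested. Structural noncoding RNA (7 genes) ran from 5395 to 19430 CPM in placode-enriched libraries, against 6828 to 20770 CPM in IFE libraries. Its part in the members' values was not tested.

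The effect of the fraction was compared between the 3 pairs coded 27-7 and the 4 others by an interaction term. Nkd1 had the largest difference, at 0.81 (log2 fold change) in the 27-7 pairs and -0.30 in the others. The difference of 1.10 ± 0.35 had an unadjusted p of 0.00853 and an edgeR adjusted p of 0.902. For Tcf7 the fold changes were 1.61 in the 27-7 pairs and 1.15 in the others, a difference of 0.45 ± 0.17 (edgeR adjusted p = 0.902). All 9 tested members had a larger or less negative value in the 27-7 pairs, and for all 9 the adjusted p was 0.902 to 0.921. How many of all genes tested did so was not counted, so this is a description only. Pair 5, whose placode-enriched library was the highest for 7 of the 9, is one of the 27-7 pairs. Over all genes tested 0 passed with edgeR, with 528 at an unadjusted p under 0.05, and 0 with limma-voom, with 599.

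The genes nearest to each member were found by the root mean square difference of centred log2 CPM over the 14 libraries, where 0 means the same profile. Nearest to Lef1 were Soga1 (0.053), Fbrsl1 (0.092) and the laminin chain gene Lama5 (0.095), against 0.403 for the spread of Lef1 itself. Nearest to Tcf7 were Prox1 (0.183), Robo1 (0.185) and Trp53inp2 (0.188), at a spread of 0.718. The nearest profiles to Tcf7l1 were those of Mta1 (0.069), Brd3 (0.071) and Hcfc1 (0.085), at a spread of 0.279. For Tcf7l2 they were Wiz (0.067), the Wnt co-receptor gene Lrp5 (0.076) and Ankrd52 (0.078), at a spread of 0.318.

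Axin2 lay nearest to Ksr1 (0.088), Kdelr1 (0.092) and Vamp2 (0.098), at a spread of 0.273. Axin1 lay nearest to Maml3 (0.052), Brd2 (0.055) and Eif2b4 (0.065), at a spread of only 0.135. Sp5 lay nearest to Mical2 (0.675), the secreted Wnt inhibitor gene Wif1 (0.691) and Cabp1 (0.782), against its own spread of 2.63. Nkd2 lay nearest to Ppp2r2b (0.358), Shisa7 (0.364) and Mapt (0.364), at a spread of 0.913. The nearest to Nkd1 were relatively farther, at 0.229 for Rny1 and 0.239 each for Bud13 and Sirt4, against a spread of 0.415.

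Around the Axins, 26 genes of the destruction complex and of Dishevelled were tested, of which 9 were higher, 1 lower and 16 did not pass, where 15.5% of all genes tested were higher and 15.6% lower. Their median log2 fold change was 0.12 (mean 0.31), against -0.02 over all genes. This list, like those below, was chosen with earlier results of these data known, so its counts are a description. Ctnnb1, which encodes beta-catenin itself, rose, at 2599 ± 304 CPM in placode-enriched libraries, against 1054 ± 83.8 CPM in IFE libraries (1.30 ± 0.08; edgeR adjusted p = 7.69e-08); of its 5192 exon bases, 759 are shared with a gene on the opposite strand. Apc2, a relative of the scaffold gene Apc, rose by 1.92 ± 0.26 from a low level, at 3.78 CPM in placode-enriched libraries, against 0.968 CPM in IFE libraries. Amer2 (1.73 ± 0.45) and Frat2 (1.24 ± 0.38) also rose from low levels, at 0.491 and 1.53 CPM in IFE libraries. The casein kinase gene Csnk1e rose too (0.68 ± 0.07), from 75.6 CPM in IFE libraries. The kinase genes of the complex Csnk1a1 (0.03), Gsk3b (-0.06) and Csnk1d (-0.08) did not pass. The gene that fell, Ppp2r5a, encodes a phosphatase subunit (-0.39 ± 0.09); without replicate 5, 3 genes of the list were lower.

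Among 24 nuclear partners of beta-catenin and the Tcf proteins, 7 were higher, 3 lower and 14 did not pass, with a median of 0.12. Over all genes tested the median was -0.02, with 15.5% higher and 15.6% lower, and the 3 that fell are near that share. The corepressor gene Tle4 rose, at 66.7 ± 7.95 CPM in placode-enriched libraries, against 23.9 ± 2.55 CPM in IFE libraries (1.48 ± 0.09; edgeR adjusted p = 6.34e-08). Tle2 (0.77), Pygo1, a coactivator gene (0.58), and Ldb1 (0.44) rose as well, whereas the corepressor gene Tle3 (0.03), Smarca4 (0.10) and Crebbp (0.15) did not pass. Tnik, a kinase that acts with Tcf proteins, fell, at 9.58 ± 2.61 CPM in placode-enriched libraries, against 26.6 ± 3.92 CPM in IFE libraries (-1.51 ± 0.14; edgeR adjusted p = 1.98e-06). The others that fell were Bcl9l (-0.44) and Hipk2 (-0.37), and without the pair block 1 of these 24 genes was lower.

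Of 25 other genes known as Wnt targets, 19 were tested, of which 12 were higher, 3 lower and 4 did not pass, with a median of 0.33 and a mean of 0.80. The count that fell is near the 15.6% of all genes tested, and 15.5% of all genes were higher. The secreted inhibitors Wif1 (5.36 ± 0.18) and Dkk4 (3.16 ± 0.09) and the ligand gene Fgf20 (3.11 ± 0.15) rose most, with the receptor gene Edar (2.79 ± 0.07). Several of these are also placode markers, so the list is not independent of the sort. The 3 that fell were Cd44, which encodes a hyaluronan receptor (-2.54 ± 0.09), Myc (-0.91 ± 0.13) and Bambi (-0.69 ± 0.23). Kremen1 (-0.13), Ppard (0.12) and Bmp4 (-0.21) were among those that did not pass. Lgr5, Notum, Dkk1, Cdx1, T and Fosl1 were removed by the filter on low counts.

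**Figure D5:**
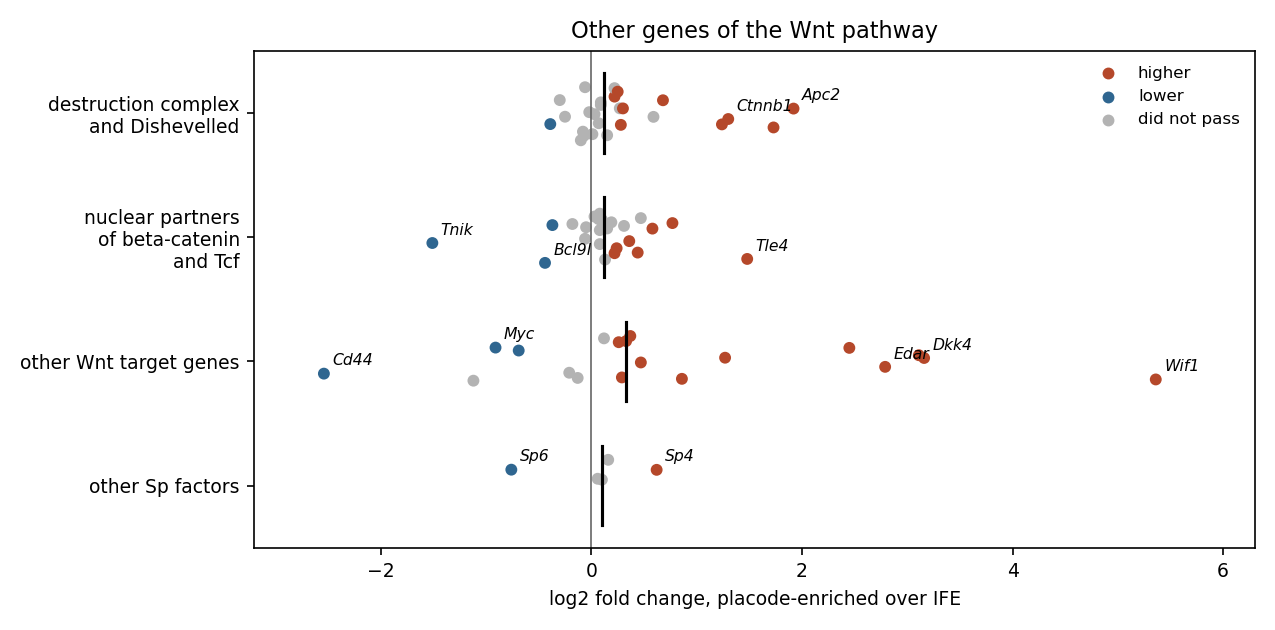
Log2 fold change of placode-enriched over IFE (x axis) of each tested gene in 4 lists of other Wnt pathway genes (rows; the height within a row is random), in red or blue where the gene was higher or lower at an adjusted p under 0.05 and grey otherwise; black bars are medians. The medians lie at 0.12, 0.12, 0.33 and 0.10, and the Wnt targets have the widest spread, with Wif1 at 5.36 and Cd44 at -2.54.

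Markers of dermal fibroblasts, in which Lef1 is also known to be made, summed to 365 to 593 CPM in placode-enriched libraries, against 250 to 339 CPM in IFE libraries. Of 10 listed, 6 were tested, of which 2 were higher and 1 lower. Dcn carried most of the sum, at 498 ± 79.2 CPM in placode-enriched libraries, against 258 ± 24.2 CPM in IFE libraries. The defining markers Twist1 and Prrx1 were at 0 in all 7 placode-enriched libraries and averaged 0.318 and 0.335 CPM in IFE. Endothelial markers summed to at most 3.40 CPM in any library, nearly all of it Pecam1 (1.83 CPM in placode-enriched libraries, against 0.493 CPM in IFE libraries). Immune markers summed to at most 3.64 CPM, mostly Aif1 (2.65 CPM in placode-enriched libraries, against 0.626 CPM in IFE libraries), while the averages of Ptprc, Csf1r, C1qa and Cd3e were all below those in IFE and under 0.14 CPM. Periderm markers (8 genes) summed to 435 ± 56.7 CPM in placode-enriched libraries, against 176 ± 18.5 CPM in IFE libraries, and Krt17 alone gave 406.5 CPM in placode-enriched libraries, against 84.2 CPM in IFE libraries. Of the 7 periderm markers tested, 3 were higher (Krt17, Krt8 and Krt18) and 4 lower (Krt19, Gabrp, Rhov and Sprr1a), so they had no shared direction. Basal epidermis markers (7 genes) summed to 6326 ± 626 CPM in placode-enriched libraries, against 7000 ± 598 CPM in IFE libraries, with 3 higher (Trp63, Krt14 and Col17a1) and 3 lower (Krt5, Krt15 and Itgb4). The part of these markers in the values of Lef1, Tcf7 and Sp5 was not tested.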

How the data were processed

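Total RNA of 14 sorted libraries, 7 placode-enriched and 7 IFE, was made into cDNA with the Ovation SoLo system, per the labels. The authors deposited raw counts of reads by Ensembl gene identifier with 1 column a library, and every column was used. HTSeq, STAR (1.5, as listed), Trimmomatic, MultiQC, FastQC and bcl2fastq (2.17.1.14) are named, per the submitters' processing notes, with the builds mm10 and GRCm38. Not given in the sources used here are the annotation, the strand setting and the handling of duplicate reads, so reads of genes that overlap on opposite strands may be mixed.

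Symbols, places and exon lengths came from GENCODE M21 (GRCm38), which matched 25949 of 26252 identifiers; the 303 others held 0.436% of counts. edgeR 4.0.16 (R 4.3.3) was run with filterByExpr, which kept 15382 genes, TMM scaling and robust quasi-likelihood tests, with the pair as a block. The prior count was 0.125, or 2 for differences per pair, and standard errors are approximate. CPM use TMM-scaled totals of the genes kept by the filter, and CPM per kb divide by the union of exons. Marker lists (10) were summed and compared by exact two-sided sign-flip permutation tests over 7 pairs: p = 0.0156, the smallest possible, adjusted 0.0195, for 8 lists; 0.0312, adjusted 0.0347, for basal epidermis; 0.812 for structural RNA. These test sums, which 1 abundant gene can carry. Krt17 did so for periderm, Dcn for dermal fibroblast, Erbb3 for Schwann cell and neuron, Aif1 for immune and Pecam1 for endothelial markers. Periderm, basal and dermal fibroblast markers were called in both directions. The placode list holds Madcam1, so its test is not independent of the sort.

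The series' design text gives the pairs, and 2 libraries share each title code. Deviations of paired libraries from their fraction means correlated by 0.0548 on average across genes (-0.132 to 0.195; over 0.1 in 2 pairs). The labels do not say that the 3 pairs coded 27-7 are separate litters, so the p-values reflect only how these pools spread, which may be partly technical. Alternatives used other scaling, filters, dispersion, DESeq2 1.42.0, limma-voom (limma 3.58.1), no block, subsets of pairs and a threshold of 0.01. Named genes are the members, the 3 nearest to each, and per list up to 5 that passed with the largest change and up to 3 of the highest CPM that did not. Of 158 list genes 157 were in the table, Tle5 under its older symbol. The members and lists were chosen with earlier results of these data known. Tables used Python 3.11.15 with pandas 2.3.3.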

Additional observations from a re-analysis of the deposited data

Results flagged for a closer look

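Axin1 was higher in all 3 pairs coded 27-7 and lower in all 4 others, which brought it here. Some of these log2 differences were very small, at 0.02 in pair 7, 0.047 in pair 6 and -0.009 in pair 4. The largest were 0.225 in pair 5 and -0.246 in pair 3. How many of all genes tested split in this way was not counted. The log2 fold changes were 0.10 in the 27-7 pairs and -0.15 in the others, a difference of 0.25 ± 0.14. The interaction term gave an unadjusted p of 0.102 and an edgeR adjusted p of 0.902, so the difference did not pass.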

How the results depend on the processing

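Over 19 alternative settings, Tcf7 (log2 fold change 1.15 to 1.61), Sp5 (4.63 to 5.15) and Nkd2 (-1.94 to -1.27) kept their direction and passed in each. Lef1 ranged from 0.37 to 0.72 and missed the threshold in 1 setting, the 4 pairs not coded 27-7 (0.37, edgeR adjusted p = 0.0641). Tcf7l1, Tcf7l2, Axin1 and Nkd1 passed in none, but leaving out 1 pair moved them by over 1.5 times. Without replicate 5, Tcf7l1 was 0.076, Nkd1 0.045, Axin1 -0.091 and Tcf7l2 -0.027, a turned sign; the ranges reached 0.24 for Tcf7l1, 0.37 for Nkd1 (without replicate 2), -0.0092 for Axin1 and 0.12 for Tcf7l2 (each without replicate 3). Axin2 passed in 1 setting, without replicate 5; leaving out each pair in turn gave it -0.25 to -0.087. Without the pair block the calls of the 9 members were unchanged, with Lef1 at 0.55 (edgeR adjusted p = 0.00964). The cause of these changes was not tested, beyond the smaller number of pairs.

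The count of genes that differed was 2331 (1226 higher, 1105 lower) in the 27-7 pairs alone and 3087 (1547 higher, 1540 lower) in the others alone, and 3953 to 5229 with each pair left out. In the destruction complex list 4 genes were higher in the 27-7 pairs, in the others, or at a threshold of 0.01, and 1 to 3 were lower with each pair left out. In the nuclear list 3 were higher in the 27-7 pairs and 4 in the others. There 1 was lower in the 27-7 pairs, at 0.01, or without the block. Of the other Sp factors 0 were higher and 0 lower in the 27-7 pairs. Depth limits Sp8, and the precision of Sp5 in IFE, of Nkd1 and of Nkd2.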
